A study of Mus musculus with 6 samples.

Results

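The genes that make cholesterol, take it up, move it inside the cell and export it were followed in AML12 cells, a mouse hepatocyte line of wild-type genotype. They were 29 genes listed by symbol for their place in the pathway, and all 29 had a row among the 54532 genes of the deposited count table. RNA was sequenced in 6 libraries after 24 h. Of these, 3 were labelled PP, which received an agent of that name at 250 µg/ml, and they were set against 3 labelled PA/OA, which received a modelling reagent (400 nM PA and 800 nM OA, units as submitted). The PP labels name PP alone, while the design text names both agents together, so whether PP cells were given PA/OA as well is unclear. By its title the series concerns lipid metabolism and peptides from Camellia oleifera meal, and untreated cells were not analysed here. Separate cultures are not stated for the replicates, so p-values cover the spread among 6 libraries, and that spread may be technical.

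Cholesterol is built from acetyl-CoA. The mevalonate steps give isoprenoid units, joining of farnesyl diphosphate gives squalene, and squalene is closed into lanosterol and trimmed to cholesterol. When sterol is scarce in the endoplasmic reticulum, the sterol-sensing transcription factor SREBP2 is released and raises the genes of synthesis and uptake. When sterol is plentiful, oxysterols activate the nuclear receptors LXRα and LXRβ, which raise genes of export. Hepatocytes carry out all of these steps, and only mRNA was measured here.

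Library totals ran from 27418502 to 32560589 counts in PP and from 24113169 to 26825673 in PA/OA. Levels are given as CPM after TMM scaling of the libraries over all genes, and log2 fold changes are PP minus PA/OA with their SE. Of the hepatocyte markers, the keratin genes Krt8 and Krt18 were abundant, whereas Alb stood at only 8.94 to 11.5 CPM in PP and 10.7 to 13.4 CPM in PA/OA. Hnf4a, a transcription factor of hepatocyte identity, was lower in PP (log2 fold change -1.42). Over all genes tested 35.1% rose and 39.9% fell, and the marker counts here are to be read beside these shares. Of 10 hepatocyte markers, 9 of them tested, 2 rose and 4 fell. Their summed level was 3720 to 4070 CPM in PP and 3010 to 3220 CPM in PA/OA. The keratins, the only 2 that rose, carried this sum, with means of 1990 and 1730 CPM in PP and 1780 and 975 CPM in PA/OA for Krt8 and Krt18, so the higher sum in PP goes against the markers that fell, among them Alb, Hnf4a and Cebpa. Of 5 cholangiocyte markers 4 rose and Epcam was at 0, with sums of 4050 to 4500 CPM in PP and 2430 to 2550 CPM in PA/OA. Of 5 Kupffer cell markers Adgre1, Clec4f and Vsig4 were at 0 in all libraries, and the sum, 26.5 to 29.3 CPM in PP against 2.80 to 3.60 CPM in PA/OA, lay almost wholly in Cd68. Sums were at most 3.20 CPM in PP and 4.54 CPM in PA/OA for stellate cell markers, of which Des fell, and at most 0.941 CPM in PP and 1.50 CPM in PA/OA for endothelial markers. The part of these differences in the results that follow was not tested.

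Most of the listed genes of cholesterol synthesis and of uptake and transport were higher in PP. The LXRα gene Nr1h3 was lower, and the exporter genes Abca1 and Abcg1 were close to undetected in both groups. A wider list of 15 sterol transport genes, given below, was mixed, with 8 higher and 5 lower. Of the 29 genes, 26 had enough counts to be tested, and the lowest count of any of these 26 in any library was 99. Among them 21 rose, 2 fell (Hsd17b7 and Nr1h3) and 3 did not pass (Mvk, Dhcr7 and Nr1h2) at an adjusted p under 0.05. Over all 15718 genes tested 75.0% passed, 35.1% as higher and 39.9% as lower in PP, so a change as such was common. The median log2 fold change was 1.06 over the 26 genes and -0.09 over all genes tested. The 29 genes were chosen with earlier results of these data known, so the comparisons with all genes are not independent of the data. Values of the PP and PA/OA libraries did not overlap for 21 of the 26 with PP higher and for 2 with PP lower, where 77.4% of all genes tested did not overlap, 36.1% with PP higher and 41.4% with PP lower. After rounding to 2 decimals, a log2 fold change of at least 1 was called for 14 of the 26, among them Scarb1 at 1.99-fold. Without rounding, at least a 2-fold rise was called for 12.1% of all genes tested.

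The number of genes called higher depended on how the libraries were scaled. TMM gave 5510 higher and 6275 lower genes, so 46.8% of the called genes were higher. The higher share was 26.6% with library size only (3235 higher, 8910 lower) and 35.6% with upper-quartile scaling (4241 higher, 7688 lower). The shift of all genes relative to TMM was -0.43 with library size only and -0.24 with upper quartiles. The median of the 26 genes relative to the median of all genes was 1.15 under each of these 3 scalings. These scalings move every gene about alike, so this difference between medians was bound to stay the same. It was 0.78 when the trend of fold changes with abundance was removed from each library.

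**Figure D1:**
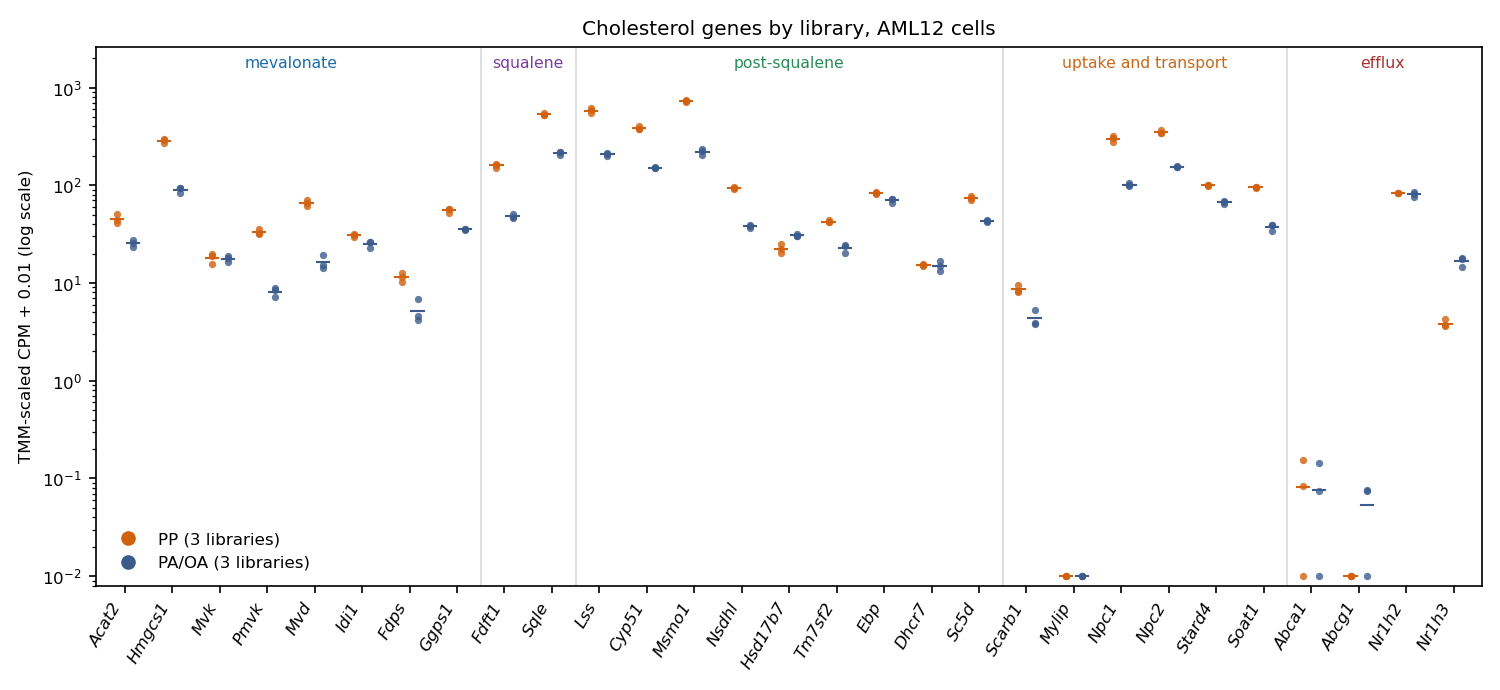
TMM-scaled CPM of the 29 genes in each library on a log axis, with 0.01 added so that zeros can be drawn; points are libraries, PP left and PA/OA right for each gene, and bars are means of 3. Most synthesis and transport genes stand higher in PP, Nr1h3 stands lower, and Mylip, Abca1 and Abcg1 lie at or near 0.

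Promoter letters are shown for 5 synthesis genes, 3 that rose (Hmgcs1, Msmo1 and Mvd), Mvk, which did not pass the test, and Hsd17b7, which fell, so that members that differed in response can be read side by side. The windows are those of RefSeq on GRCm38.p6, which run from 250 bases before the start site to 50 bases after it, and 22 of the 29 genes had one. They lie at chr13:119690101-119690400 (plus strand, Hmgcs1), chr8:64733529-64733828 (minus strand, Msmo1), chr8:122443373-122443672 (minus strand, Mvd), chr5:114444019-114444318 (plus strand, Mvk) and chr1:169969156-169969455 (minus strand, Hsd17b7). Each is written along its gene's strand, and capitals mark matches to the sterol regulatory element TCACNCCAC, to the CCAAT box CCAAT and to the GC box GGGCGG on either strand, none of which overlapped in these windows.
Hmgcs1: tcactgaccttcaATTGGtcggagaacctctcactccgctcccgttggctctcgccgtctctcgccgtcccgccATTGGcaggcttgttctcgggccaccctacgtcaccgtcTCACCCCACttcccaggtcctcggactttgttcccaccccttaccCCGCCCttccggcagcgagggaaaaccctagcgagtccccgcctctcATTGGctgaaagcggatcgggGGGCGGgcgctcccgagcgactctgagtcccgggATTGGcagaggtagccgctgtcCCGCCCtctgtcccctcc
Msmo1: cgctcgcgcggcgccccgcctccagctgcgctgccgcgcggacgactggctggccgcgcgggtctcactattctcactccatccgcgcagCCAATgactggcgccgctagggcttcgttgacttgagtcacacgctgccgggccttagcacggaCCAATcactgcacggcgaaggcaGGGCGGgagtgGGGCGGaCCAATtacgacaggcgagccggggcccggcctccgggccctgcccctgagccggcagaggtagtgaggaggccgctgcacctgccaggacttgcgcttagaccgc
Mvd: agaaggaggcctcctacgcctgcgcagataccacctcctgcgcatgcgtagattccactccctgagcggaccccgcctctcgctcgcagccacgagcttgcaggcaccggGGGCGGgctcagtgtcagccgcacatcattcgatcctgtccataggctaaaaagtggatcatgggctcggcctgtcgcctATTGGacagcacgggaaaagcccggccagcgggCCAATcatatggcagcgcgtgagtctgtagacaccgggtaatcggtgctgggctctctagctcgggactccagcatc
Mvk: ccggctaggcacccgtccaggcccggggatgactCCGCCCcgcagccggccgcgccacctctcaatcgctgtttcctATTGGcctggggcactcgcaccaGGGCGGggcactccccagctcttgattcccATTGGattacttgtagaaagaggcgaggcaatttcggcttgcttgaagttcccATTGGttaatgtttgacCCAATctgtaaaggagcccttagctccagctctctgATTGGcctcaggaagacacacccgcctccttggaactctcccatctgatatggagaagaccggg
Hsd17b7: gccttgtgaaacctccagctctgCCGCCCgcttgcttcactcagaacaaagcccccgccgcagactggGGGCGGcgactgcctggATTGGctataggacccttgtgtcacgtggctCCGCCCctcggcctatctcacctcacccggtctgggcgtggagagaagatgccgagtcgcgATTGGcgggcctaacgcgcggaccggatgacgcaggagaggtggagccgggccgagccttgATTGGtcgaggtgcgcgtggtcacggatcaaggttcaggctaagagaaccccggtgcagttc

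The sterol regulatory element was found in 1 of the 22 genes with a window, Hmgcs1, where it begins 137 bases before the start site (position -137), and in 1.44% of all 27025 genes with a window. A CCAAT box, the site of the factor NF-Y, stood in 18 of the 22 genes and in 41.1% of all genes, and a GC box in 18 of the 22 and in 38.2%. The shares of all genes were not limited to genes expressed here, so they compare unlike sets. Of 15 genes with a window that rose, 14 held a CCAAT box and 13 a GC box. Of 2 that fell, 1 held a CCAAT box and 1 a GC box, and of 3 not called 2 held each. Of 2 not tested, 1 held a CCAAT box and 2 a GC box. Mvk, with 5 CCAAT boxes and 2 GC boxes, held more CCAAT boxes than Mvd, with 2 and 1, although Mvd rose and Mvk did not pass. Hsd17b7 held 3 of each. The direct-repeat LXR element was in none of the 22 and in 0.0148% of all genes. A match is a description of letters, and a missing match says only that these letters are not in these windows.

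In the mevalonate steps 7 of 8 genes rose and Mvk did not pass. The counts of each step, here and below, are to be read beside all genes tested, of which 35.1% rose and 39.9% fell. Hmgcs1, which codes for the synthase that makes HMG-CoA (chromosome 13, 119690379 to 119708260, build mm10), had 288, 295 and 269 CPM in PP, against 94.2, 93.1 and 83.3 CPM in PA/OA. The groups lay far apart, and the log2 fold change was 1.65 ± 0.06 (adjusted p = 4.27e-16). Acat2, the cytosolic thiolase of the step before it, had 40.7, 50.6 and 44.4 CPM in PP, against 27.5, 23.5 and 25.8 CPM in PA/OA, a log2 fold change of 0.82 ± 0.09. Every PP library was above every PA/OA library for both genes. Acat2 shares 97.7% identity over 1477 bases with Acat3, which had 298 counts in PP and 272 in PA/OA over 3 libraries each, and 98.7% over 445 bases with a transcript of the abundant gene Tcp1, so its count is uncertain.

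The kinase and decarboxylase steps that follow did not move together. Mvk, the mevalonate kinase gene (chromosome 5, 114444269 to 114460591), had 19.1, 19.8 and 15.5 CPM in PP, against 18.1, 16.5 and 18.7 CPM in PA/OA, and these ranges overlapped (log2 fold change 0.03 ± 0.11, adjusted p = 0.825). Pmvk, the phosphomevalonate kinase gene of the next step (chromosome 3, 89454541 to 89469013), had 31.4, 35.7 and 32.1 CPM in PP, against 8.42, 7.16 and 8.82 CPM in PA/OA. Mvd, whose decarboxylase yields isopentenyl diphosphate (chromosome 8, 122433601 to 122443422), had 66.6, 70.5 and 61.2 CPM in PP, against 15.3, 14.3 and 19.2 CPM in PA/OA. Pmvk and Mvd each rose 4.07-fold, a log2 fold change of 2.02 with SE 0.11 and 0.10 (adjusted p = 2.33e-13 and 3.32e-14), at the 98.2 percentile of all genes tested. Ratios of raw counts within a library are free of scaling between libraries. The pairs given here and below join genes of unlike fold change, so ratios that separate the groups follow from that choice. There were 1.65 to 2.07 Pmvk counts for each Mvk count in PP libraries, against 0.434 to 0.471 in PA/OA libraries. For Mvd over Mvk the ratio was 3.49 to 3.94 in PP, against 0.845 to 1.03 in PA/OA. Mvk feeds Pmvk, and Pmvk feeds Mvd, so neighbours in the chain differed in their mRNA.

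Idi1, which codes for the isomerase of the isoprenoid units, had 31.3, 29.4 and 32.0 CPM in PP, against 26.2, 26.3 and 22.9 CPM in PA/OA. Its rise was small (log2 fold change 0.30 ± 0.09, adjusted p = 0.00475) and was not called with upper-quartile scaling (0.06, adjusted p = 0.561) or with library size only (-0.14, adjusted p = 0.16). Idi1 has 3 near-identical processed pseudogenes. Of these, Gm13502 is 100% identical over 684 bases and had 48 counts in PP and 49 in PA/OA over 3 libraries each. The other copies had 0 counts, and the count of Idi1 is therefore uncertain. Hmgcs1 counts were 8.39 to 10.1 times those of Idi1 in PP libraries and 3.53 to 3.63 times in PA/OA libraries. Ggps1, which makes the geranylgeranyl diphosphate used to anchor proteins to membranes, had 52.6, 57.5 and 57.2 CPM in PP, against 35.7, 35.6 and 34.6 CPM in PA/OA. That gave a log2 fold change of 0.66 ± 0.07.

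Fdps, which codes for farnesyl diphosphate synthase, had few counts for an enzyme of this chain, with 11.4, 12.6 and 10.2 CPM in PP, against 6.79, 4.20 and 4.57 CPM in PA/OA. All PP libraries were above all PA/OA libraries, although PA/OA replicate 1 stood apart from the other PA/OA libraries (log2 fold change 1.13 ± 0.17, adjusted p = 5.05e-06). Processed pseudogenes near-identical to Fdps held more counts than the gene. Gm3571, 98.9% identical over 1062 bases, had 608, 833 and 701 counts in PP, against 290, 325 and 318 in PA/OA, while Fdps had 270, 349 and 279 counts in PP, against 213, 126 and 128 in PA/OA. Gm5873, 96.7% identical over 1066 bases, had 153, 167 and 131 counts in PP, against 51, 40 and 40 in PA/OA. Gm3571 rose by 1.37 ± 0.11 and Gm5873 by 1.97 ± 0.23 on the log2 scale. Of the counts in Fdps and its 5 pseudogene copies together, Fdps held 25.7% in PP and 30.4% in PA/OA. The scaled sum over all of them was 2.58 times as high in PP as in PA/OA. How the counting divided reads among these copies was not given in the sources used here, so the level and fold of Fdps are uncertain.

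Both squalene genes rose, where 35.1% of all genes tested rose. Fdft1, the squalene synthase gene (chromosome 14, 63145150 to 63179578), had 161, 166 and 151 CPM in PP, against 46.7, 47.6 and 51.1 CPM in PA/OA, a 3.29-fold rise (adjusted p = 3.36e-16). Sqle, whose squalene epoxidase is a rate-controlling step of the later pathway (chromosome 15, 59315077 to 59331192), had 527, 549 and 528 CPM in PP, against 221, 218 and 205 CPM in PA/OA, a 2.49-fold rise (adjusted p = 1.79e-15). The groups did not overlap for either gene. In the annotation 18.3% of the exon bases of Fdft1 also belong to Ctsb on the opposite strand, a cathepsin gene with 61560 counts in PP and 22748 in PA/OA. Whether strand was used in counting was not given in the sources used here, and the part of Ctsb in the Fdft1 counts was not tested.

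Beyond squalene, 7 of 9 genes rose, Hsd17b7 fell and Dhcr7 did not pass, where 35.1% of all genes tested rose and 39.9% fell. Lss, Cyp51 and Msmo1 had the most counts. Lss, the lanosterol synthase gene, had 613, 583 and 549 CPM in PP, against 209, 197 and 215 CPM in PA/OA. Cyp51, the lanosterol demethylase gene, had 381, 407 and 374 CPM in PP, against 150, 152 and 151 CPM in PA/OA. Msmo1, whose oxidase starts removal of the methyl groups that follow (chromosome 8, 64718139 to 64733792), had 718, 722 and 750 CPM in PP, against 223, 234 and 204 CPM in PA/OA. These 3 genes rose 2.81-fold, 2.56-fold and 3.31-fold, with adjusted p from 8.27e-17 for Msmo1 to 1.30e-15 for Cyp51. Libraries of a group lay close together for all of them.

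The 2 enzymes that complete the same demethylation as Msmo1 went apart. Nsdhl, the sterol dehydrogenase gene (chromosome X, 72918557 to 72958514), had 94.0, 96.7 and 92.0 CPM in PP, against 38.5, 39.4 and 36.4 CPM in PA/OA (log2 fold change 1.31 ± 0.07, adjusted p = 6.56e-14). Hsd17b7, the keto-reductase gene of the step after it (chromosome 1, 169949535 to 169969241), had 24.9, 20.4 and 22.2 CPM in PP, against 31.5, 30.6 and 30.6 CPM in PA/OA. No PP library reached the PA/OA range, and the log2 fold change was -0.46 ± 0.09 (adjusted p = 0.000109). Within libraries there were 3.78 to 4.75 Nsdhl counts for each Hsd17b7 count in PP, against 1.19 to 1.29 in PA/OA. The fall of Hsd17b7 was larger with library size only (-0.90) and with upper-quartile scaling (-0.70).

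Among the other genes beyond squalene the rises were smaller, or were not called. Tm7sf2, a reductase gene of the step after Cyp51, had 41.7, 42.2 and 43.6 CPM in PP, against 20.5, 24.6 and 23.7 CPM in PA/OA (log2 fold change 0.89 ± 0.09). Sc5d, the sterol desaturase gene, had 77.0, 74.1 and 71.5 CPM in PP, against 42.1, 43.3 and 43.7 CPM in PA/OA (0.79 ± 0.07). Both were separated by group. In the annotation 12.1% of the exon bases of Tm7sf2 also belong to Vps51 on the same strand, and the part of Vps51 in the Tm7sf2 counts was not tested. Ebp, the sterol isomerase gene, had 81.6, 83.6 and 85 CPM in PP, against 72.1, 66.6 and 71.9 CPM in PA/OA (0.25 ± 0.06, adjusted p = 0.00101). This small rise of Ebp turned round with library size only (-0.19, adjusted p = 0.0102), and was not called with upper-quartile scaling (0.01, adjusted p = 0.877) or with the abundance trend removed (-0.05, adjusted p = 0.454). Dhcr7, whose reductase completes cholesterol, had 15.7, 14.9 and 15.3 CPM in PP, against 16.8, 13.1 and 15 CPM in PA/OA, with overlapping groups (0.03 ± 0.12, adjusted p = 0.816). Cyp51 counts were 24.2 to 27.3 times those of Dhcr7 in PP libraries and 8.93 to 11.6 times in PA/OA libraries. Msmo1 counts were 8.64 to 8.82 times those of Ebp in PP and 2.84 to 3.51 times in PA/OA.

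**Figure D2:**
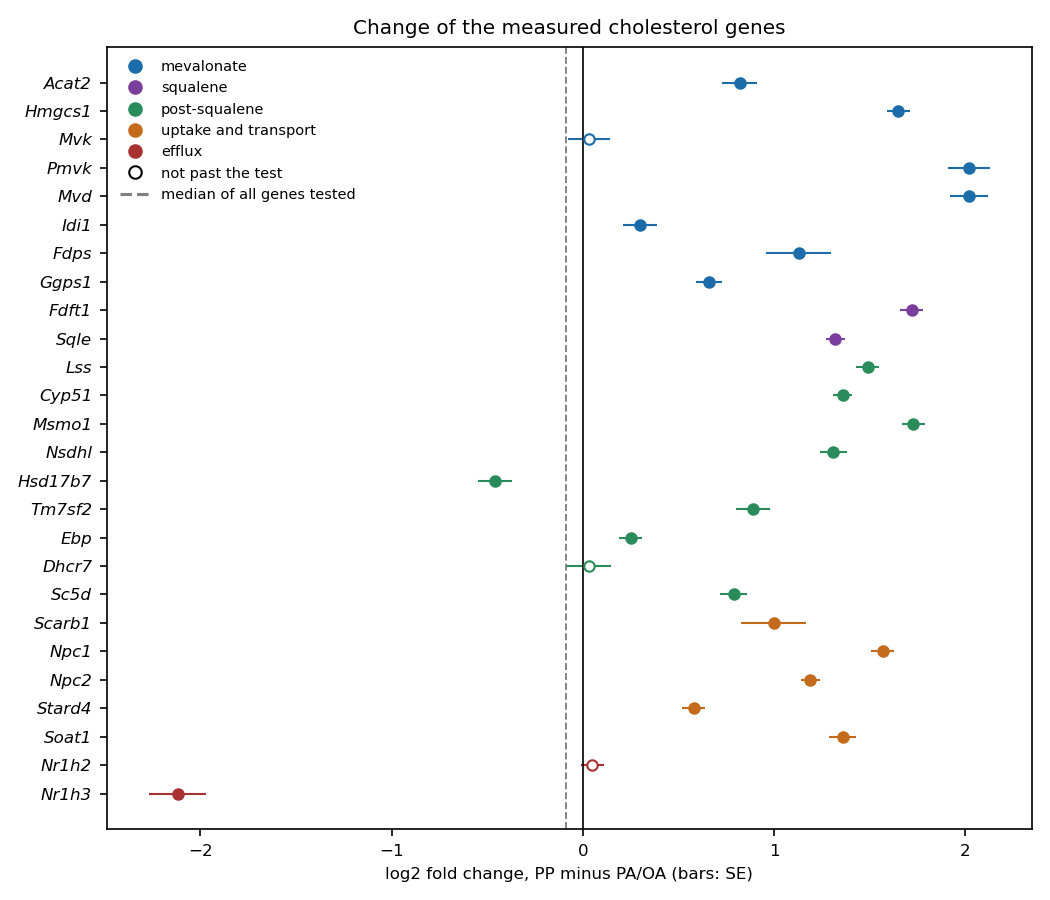
Log2 fold change, PP minus PA/OA, with SE for the 26 genes tested, in pathway order and coloured by step; open points did not pass the test and the dashed line is the median of all genes tested, -0.09. Pmvk and Mvd stand highest at 2.02 and Nr1h3 lowest at -2.12, and Mvk, Dhcr7 and Nr1h2 lie near 0.

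**Figure D3:**
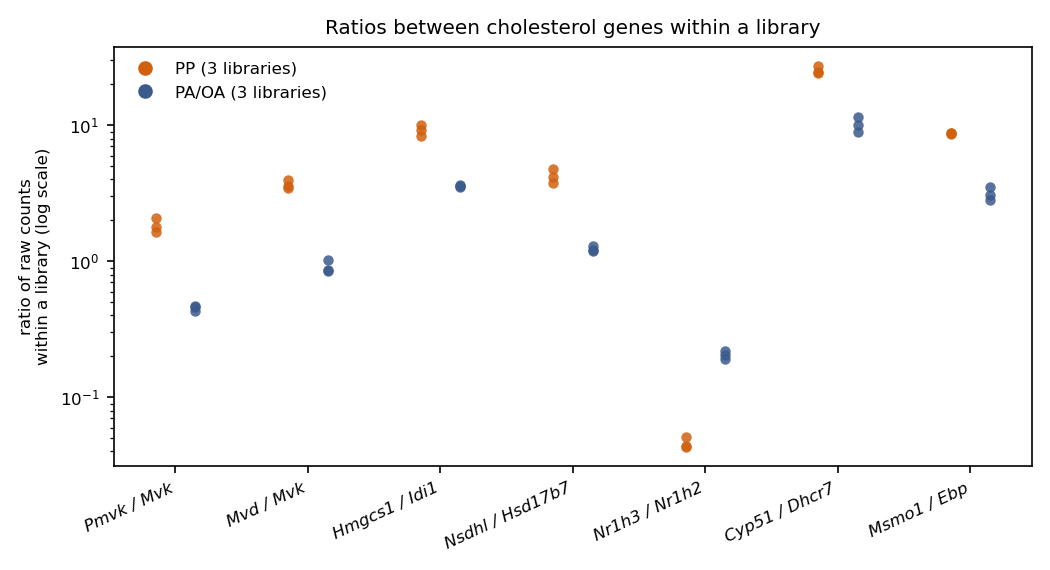
Ratios of raw counts of 2 genes within each library on a log axis, PP left and PA/OA right for each pair; both counts come from the same library, so no scaling between libraries enters. The groups do not overlap for any of the 7 pairs, with Pmvk over Mvk at 1.65 to 2.07 in PP and 0.434 to 0.471 in PA/OA. The pairs join genes of unlike fold change, so this separation follows from the choice of pairs.

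Summed over the 19 synthesis genes, CPM were 3280, 3330 and 3200 in PP, against 1300, 1290 and 1270 in PA/OA. The sum was 2.54 times as high in PP as in PA/OA, and 1.88 times with library size only. The steps differed little from each other in this sum, with ratios of 2.43 for mevalonate, 2.64 for squalene and 2.54 for post-squalene genes. A few abundant genes carried these sums. In PP, Lss, Cyp51 and Msmo1 had means of 582, 387 and 730 of 2030 CPM post-squalene, and Hmgcs1 had 284 of 545 CPM in mevalonate. By gene, the median log2 fold changes were 0.97, 1.52 and 0.89 for the 3 steps, and post-squalene genes ran from -0.46 to 1.73. Levels of different genes can be compared per length. Per kilobase of the gene length in the table, Msmo1 was highest of the 19 in PP, at 119 ± 2.86 CPM per kilobase, followed by Sqle and Cyp51. In PA/OA the order was Sqle at 38.7 ± 1.49, Msmo1 at 35.9 ± 2.45 and Cyp51 at 34.3 ± 0.231 CPM per kilobase (SD, n = 3), and the libraries of neighbours in this order overlapped. Dhcr7, at 2.63 ± 0.0711 CPM per kilobase in PP and 2.57 ± 0.319 in PA/OA, and Fdps, at 2.70 ± 0.295 in PP and 1.23 ± 0.333 in PA/OA, were lowest. Over the 26 genes the SD was 0.875% to 12.6% of the mean in PP and 0.675% to 27% in PA/OA, the widest being that of Fdps in PA/OA.

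Among the listed genes of uptake and transport all 5 that could be tested rose, where 35.1% of all genes tested rose. Scarb1, which codes for the receptor that takes cholesterol from high-density lipoprotein (chromosome 5, 125277087 to 125341094), had 8.04, 8.36 and 9.61 CPM in PP, against 5.32, 3.76 and 3.93 CPM in PA/OA. Its level was low, and the rise was 1.99-fold (adjusted p = 2.64e-05), with PA/OA replicate 1 the highest of its group. Mylip, which codes for a ubiquitin ligase that marks lipoprotein receptors for breakdown, had no count in any of the 6 libraries. With 91811330 counts over the PP libraries and 76979421 over the PA/OA libraries, a count of 0 allows a level of up to 0.0327 CPM in PP and 0.0390 CPM in PA/OA (3 counts of each total), so Mylip was not detectable at this depth.

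The lysosomal pair that passes cholesterol out of lysosomes rose together. Npc2, the soluble lysosomal sterol carrier (chromosome 12, 84754562 to 84773152), had 342, 370 and 339 CPM in PP, against 152, 156 and 153 CPM in PA/OA, a 2.28-fold rise. Npc1, the membrane protein that receives sterol from it, had 303, 280 and 317 CPM in PP, against 106, 100 and 97.2 CPM in PA/OA, a 2.96-fold rise (adjusted p = 7.31e-16). Neither gene's groups overlapped. Stard4, a cytosolic carrier that moves sterol between membranes, had 97.9, 99.5 and 101 CPM in PP, against 68.7, 67.6 and 64.1 CPM in PA/OA (log2 fold change 0.58 ± 0.06), and its rise was 0.14 with library size only (adjusted p = 0.0389) and 0.26 with the abundance trend removed. Soat1, which esterifies cholesterol for storage in droplets (chromosome 1, 156424525 to 156474331), had 96.8, 97.0 and 94.8 CPM in PP, against 38.9, 38.8 and 34.4 CPM in PA/OA, a 2.57-fold rise. Npc1 counts were 33.0 to 37.7 times those of Scarb1 in PP and 19.9 to 26.7 times in PA/OA, so within the uptake and transport genes the lysosomal gene stood far above the surface receptor in count.

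No efflux gene was called higher, and Abca1 and Abcg1 had too few counts to be tested. Abca1, the transporter that loads cholesterol onto apolipoprotein A-I, had 0, 4 and 2 counts in PP, against 2, 4 and 0 counts in PA/OA. Both groups summed to 6 counts, which gives 95% exact Poisson intervals of 0.0240 to 0.142 CPM in PP and 0.0286 to 0.170 CPM in PA/OA by library totals, for counting error only. Abcg1, which exports cholesterol to mature lipoprotein particles, had no count in PP, against 2, 2 and 0 counts in PA/OA. By 3 counts of the total, the count of 0 allows up to 0.0327 CPM in PP. The 95% exact Poisson intervals were 0 to 0.0402 CPM in PP and 0.0142 to 0.133 CPM in PA/OA. These ranges overlapped for each transporter, and a difference was not detectable at this depth.

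The 2 LXR genes differed from each other. Nr1h3, which codes for LXRα (chromosome 2, 91184061 to 91202834), had 4.25, 3.58 and 3.67 CPM in PP, against 17.5, 14.6 and 17.9 CPM in PA/OA. The groups were far apart, and the gene was 4.36-fold higher in PA/OA than in PP (log2 fold change -2.12 ± 0.15, adjusted p = 1.48e-11), the largest change among the 26 genes with TMM scaling. Its log2 fold change lay at the 11.8 percentile of all genes tested, so falls of this size were not rare. Nr1h2, which codes for LXRβ (chromosome 7, 44549616 to 44553951), had 83.6, 82.8 and 84.3 CPM in PP, against 85.3, 76.0 and 81.5 CPM in PA/OA, with overlapping groups (0.05 ± 0.06, adjusted p = 0.498). It was lower in PP with library size only (-0.39), with upper-quartile scaling (-0.19) and with the abundance trend removed (-0.27). Within libraries there were 0.0433 to 0.0508 Nr1h3 counts for each Nr1h2 count in PP, against 0.192 to 0.220 in PA/OA. Per length, Nr1h2 was above Nr1h3 in both groups, at 24.9 ± 0.218 CPM per kilobase for Nr1h2 and 1.53 ± 0.144 for Nr1h3 in PP, and at 24.1 ± 1.4 for Nr1h2 and 6.64 ± 0.720 for Nr1h3 in PA/OA (SD, n = 3).

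**Figure D4:**
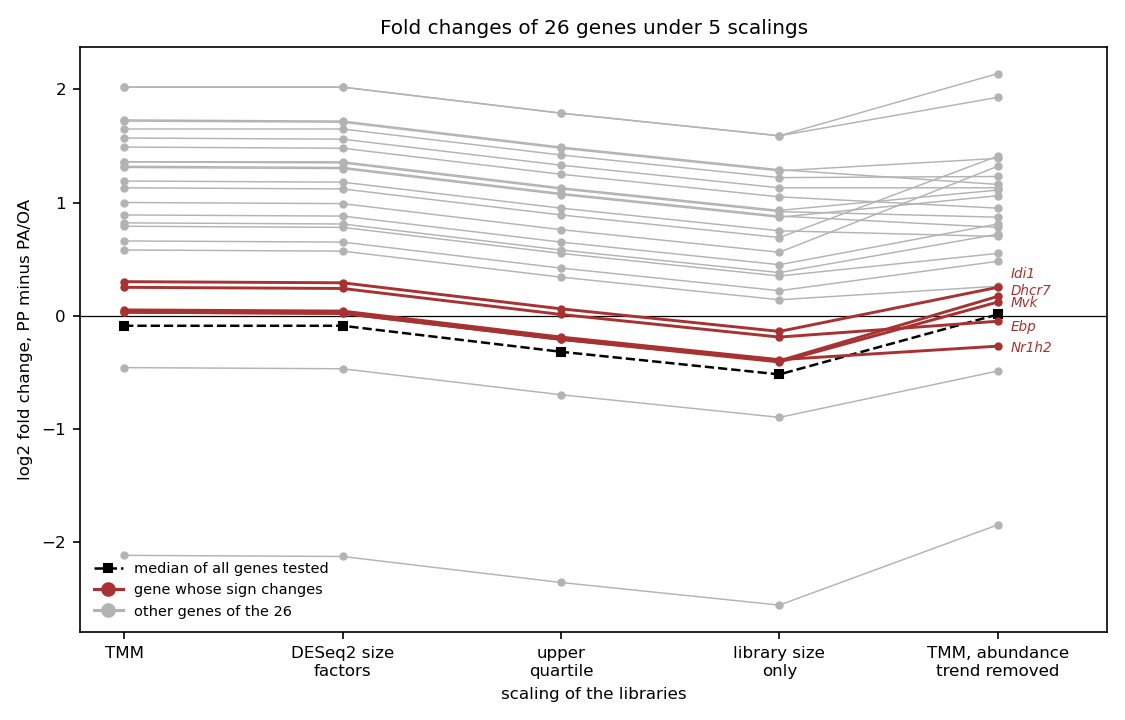
Log2 fold changes, PP minus PA/OA, of the 26 genes tested under 5 scalings of the libraries; each line is a gene, the dashed line is the median of all genes tested, and red lines are the 5 genes whose sign changes under some scaling. The median of all genes is -0.09 with TMM and -0.52 with library size only, and Mvk, Idi1, Ebp, Dhcr7 and Nr1h2 move below 0 with it.

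Several rises that stayed called were much smaller under another scaling. With library size only, the log2 fold changes were 0.38 for Acat2, 0.69 for Fdps, 0.22 for Ggps1, 0.87 for Nsdhl, 0.45 for Tm7sf2, 0.35 for Sc5d, 0.56 for Scarb1 and 0.75 for Npc2. With the abundance trend removed, those of the abundant genes Sqle, Lss, Cyp51 and Npc2 were 0.78, 0.95, 0.87 and 0.70.

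Other genes of the pathway were taken from lists written from general knowledge. The counts of each list are to be read beside the 35.1% of all genes tested that rose and the 39.9% that fell. Of 7 genes that control SREBP, 4 rose and 3 fell, with a median of 0.79. Insig1, the sterol-sensitive anchor of the SREBP escort protein and itself a target of SREBP, had 313, 318 and 285 CPM in PP, against 36.0, 34.8 and 35.0 CPM in PA/OA. It rose by 3.11 ± 0.06 (adjusted p = 7.35e-20), more than any of the 26 genes above. Insig2 rose by 1.59 ± 0.07. Srebf2, the gene of SREBP2, had 1130 CPM in each PP library, against 444, 412 and 463 CPM in PA/OA, and Srebf1 rose by 0.79 ± 0.06. With the abundance trend removed Srebf2 stood at 0.71 and Srebf1 at 0.36, and Srebf1 stood at 0.36 with library size only as well. The genes of the escort protein, Scap, and of the proteases that release SREBP, Mbtps1 and Mbtps2, fell by 0.24, 0.27 and 0.68, so the control genes did not all change in the same direction.

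Of 10 genes of lipoprotein receptors and lysosomal release, 8 rose and none fell, with a median of 0.99. Over all genes tested 35.1% rose and 39.9% fell. Scaled by library size only, the list had 7 higher and 2 lower. Lrp1, a large endocytic receptor, had 1080, 995 and 1050 CPM in PP, against 152, 123 and 137 CPM in PA/OA, a log2 fold change of 2.93 ± 0.07 (adjusted p = 4.57e-19). Lipa, the acid lipase that frees cholesterol from its esters in lysosomes, rose by 1.10 ± 0.07, and by 0.66 with library size only. Of 15 sterol transport genes, 8 rose and 5 fell, with a median of 0.32. Gramd1b, which carries sterol from the plasma membrane to the endoplasmic reticulum, fell to 40.8, 33.0 and 33.5 CPM in PP, against 149, 135 and 152 CPM in PA/OA (-2.03 ± 0.08). This lay at the 12.7 percentile of all genes tested. Stard5 fell by 0.93, and Tmem97, a binding partner of Npc1, rose by 1.14, and by 0.70 with library size only.

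Other genes of ester storage and release fell while Soat1 rose: all 3 that could be tested, of 5 listed, and 2 with the abundance trend removed, where Lcat was not called (-0.81, adjusted p = 0.214). Soat2, the other cholesterol esterifying enzyme and the form typical of hepatocytes and intestine, had 16.2, 13 and 11.3 CPM in PP, against 60.8, 50.9 and 63.5 CPM in PA/OA (-2.12 ± 0.11, adjusted p = 1.69e-13). This lay at the 11.9 percentile of all genes tested. Nceh1, a cholesterol ester hydrolase gene, fell by 0.66 (by 1.09 with library size only), and Lcat, the gene of the plasma enzyme that esterifies cholesterol, by 2.39 at a level of at most 1.21 CPM. Of 7 tested genes of efflux carriers and lipoproteins, 1 rose, Abca7 by 0.66, and 2 fell, with a median of 0.16. With the abundance trend removed the balance turned, to 4 higher and 1 lower, and Abca7 stood at 0.23 with library size only and at 0.42 with upper-quartile scaling. Abcg5 and Abcg8, the sterol exporters of the bile canaliculus, were at 0.433 CPM or less in every library.

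Of 12 genes that use isoprenoids other than for sterol, 5 rose and 6 fell, with a median of -0.01. Icmt, the methyltransferase of prenylated proteins, rose by 1.82 ± 0.06, Rabggtb, which prenylates Rab proteins, by 1.13 and Nus1, a dolichol synthesis gene, by 0.97. With library size only Rabggtb stood at 0.69 and Nus1 at 0.53, and with the abundance trend removed at 0.74 and 0.55. Pdss1, which builds the side chain of ubiquinone and was named after its values were seen, fell to 4.12, 4.02 and 3.93 CPM in PP, against 16.8, 16.2 and 16.5 CPM in PA/OA. Its log2 fold change lay at the 12.6 percentile of all genes tested. Of 9 genes of sterol-regulated protein breakdown in the endoplasmic reticulum, 1 rose, Ufd1 by 0.55, and 3 fell, among them Vcp by 0.40, with a median of -0.06. Scaled by library size only, this list had none higher and 8 lower, with Ufd1 at 0.11 (adjusted p = 0.19) and Vcp at -0.83. Without PP replicate 2, 2 of the list were higher. Of 4 tested among 5 other synthesis genes, 1 rose and 2 fell, among them the mitochondrial thiolase gene Acat1 by 0.80, and by 1.24 with library size only.

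Genes of oxysterol and bile acid formation were mostly silent. Of 11 listed, 4 could be tested, of which 1 rose and 1 fell. Cyp39a1, an oxysterol hydroxylase gene, had 76.8, 77.5 and 83.4 CPM in PP, against 169, 170 and 160 CPM in PA/OA (-1.07 ± 0.06). Baat, which conjugates bile acids, rose by 2.57 ± 0.49 at a level of at most 1.89 CPM, and the list had none higher when at least 1 CPM in 3 libraries was required. Cyp7b1, Cyp8b1, Ch25h and Hsd3b7 had no count in any library, and Cyp7a1, the rate-limiting enzyme of bile acid synthesis, was at most at 0.0638 CPM. Of 9 tested LXR partners and further LXR targets, 6 rose and 1 fell, Arl4c by 0.21, with a median of 0.19. The desaturase genes Scd1 and Scd2, which LXR and SREBP both raise, rose by 1.84 ± 0.05 and 1.09 ± 0.05, and Rxra, a dimer partner of LXR, by 0.61 ± 0.08. With the abundance trend removed Scd1 stood at 1.2 and Scd2 at 0.20, and with library size only Scd2 stood at 0.65 and Rxra at 0.18 (adjusted p = 0.0395). Scaled by library size only, the list had 3 higher and 5 lower, as it did with the abundance trend removed, and without PP replicate 1 none was lower. Over all these lists, with each gene once, 80 of 95 genes could be tested, 35 rose and 26 fell. The 76.2% called in either direction lay close to the 75.0% of all genes tested. Among all genes tested 35.1% rose and 39.9% fell.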

How the data were processed

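Gene expression was measured by RNA sequencing of 6 libraries, grouped by the treatment labels and numbered by their titles. Per the labels' protocols, mRNA was selected with oligo(dT) or rRNA was depleted, and the library kit either kept strand or did not; the choice is unstated. Raw counts per gene were deposited, made by the authors with featureCounts on build mm10 per the submitters' processing notes, which also name DESeq2 1.16.1 without its role. Aligner, annotation and strand setting: not given in the sources used here. Among values of 1 to 20 counts, 57.1% to 61.5% were even, so counts may not be independent molecules and intervals cover counting error only. Of the 54532 genes, 26561 had no count.

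In R 4.3.3 with edgeR 4.0.16, filterByExpr kept 15718 genes, libraries were scaled with TMM, and PP minus PA/OA was tested two-sided by quasi-likelihood (glmQLFit and glmQLFTest), with p-values adjusted after Benjamini and Hochberg over all tested genes. Each SE is the fold change over the root of F. Counts simulated at these library sizes were tested first. Levels per length are TMM-scaled CPM per kilobase of the table's gene length, in place of the planned TPM, since TPM lacks that scaling; the order of genes within a library is the same in both. Exon overlaps and near-identical transcripts (megablast, at least 90% identity over 300 bases) came from GENCODE M21, where 26 of the 29 genes had the table's coordinates; 10 shared exon bases with another gene and 5 had near-identical transcripts elsewhere.

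The 29 genes, the other lists and the tests were chosen with earlier results of these data known. All 29 genes are named; of other lists, up to 3 called genes with the smallest p and Insig1, Srebf1 and Srebf2, with further genes named after their values were seen. Some genes that this rule names are not reported here. Replicate numbers did not pair the libraries (correlations of same-numbered deviations from -0.02 to 0.01). Within groups, libraries differed beyond sampling noise (3.15 to 5.04 chi-square per gene, halved counts). Alternatives tried were library size only, upper quartiles, DESeq2 1.42.0 size factors, no filter, at least 1 CPM in 3 libraries, DESeq2, limma-voom (limma 3.58.1), a replicate block, protein-coding genes only, halved counts, removal of each library's lowess trend with abundance (span 0.4), and leaving out each library.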

Additional observations from a re-analysis of the deposited data

How the results depend on the processing

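Of the 26 genes tested, 21 kept direction and call under all 17 alternatives. The exceptions were changed by scaling. With library size only, the log2 fold changes were -0.41 for Mvk (adjusted p = 0.00243, edgeR), -0.14 for Idi1, -0.19 for Ebp, -0.40 for Dhcr7 (adjusted p = 0.00375, edgeR) and -0.39 for Nr1h2, so 6 of the 26 genes were called lower and 19 higher, and 3235 of all genes were called higher. With upper-quartile scaling Nr1h2 stood at -0.19 (adjusted p = 0.00831, edgeR), and with the abundance trend removed Nr1h2 stood at -0.27 and Ebp at -0.05. Library size only moves the median of all genes by -0.43; for the abundance trend the cause was not tested. Leaving out a library left 21 higher and 2 lower among the 26, and 5313 to 5485 higher and 6061 to 6452 lower over all genes. With the replicate number as a block 5427 genes were higher and 6088 lower, and 21 and 2 of the 26; it changed no call of the 26. Calls lost among other genes include those of Ufd1 with library size only (0.11) and of Lcat with the abundance trend removed (-0.81). The oxysterol list lost its 1 higher call under the 1 CPM filter, the ester list had 2 lower calls in place of 3 under that filter and with halved counts, and the LXR list lost its 1 lower call without PP replicate 1. Depth limits Abca1, Abcg1 and Mylip, which had 4 counts or fewer in any library.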
